A study of Mus musculus with 12 samples.

Results

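Basement membrane, matrix and integrin genes were read in mouse pancreatic ductal adenocarcinoma organoids labelled as Spdef knockouts, with and without an SPDEF vector, and in their Rosa26 controls. The gene set held 44 genes out of 53715 gene identifiers in the deposited tables, chosen by name and found by Ensembl identifier with GENCODE M21: 6 collagen IV chains, 7 laminin chains, 5 linkers and basement membrane proteoglycans or collagens, 7 other matrix glycoproteins, 7 proteases and inhibitors, 5 genes of TGF-beta storage or collagen modification, and 7 integrin chains. A filter on low counts kept 37 of them for testing, and the other 7 (Lama1, Sparc, Tgfbi, Tnc, Bgn, Nid2 and Col4a3) are described by their levels only.

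Organoid lines mT6 and mT69a were grown in a matrigel dome and derive from tumours of C57/Bl6 mice that carried Trp53LSLR172H/LOH and Pdx1-Cre among their alleles, so that every group shared mutant Trp53 switched on by a pancreatic Cre. In each line the control was a Rosa26 knock-out clone with an empty vector, the knockout was an Spdef knock-out clone with an empty vector, and the third group was an Spdef knock-out clone carrying an SPDEF vector. Each of these 6 groups was sequenced as 2 libraries, 12 in all. The titles give a single knockout clone number per line and none for the Rosa26 control. The loss of Spdef therefore cannot be told apart from the history of the knockout clone or of its control.

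Basement membranes are thin sheets under epithelia in which a collagen IV network and a laminin network are joined by nidogens and by the heparan sulphate proteoglycans perlecan and agrin. Epithelial cells hold on to them through integrins, paired alpha and beta chains of which the laminin-binding ones sit in hemidesmosomes and focal contacts, and secreted or membrane-bound proteases with their TIMP inhibitors remodel the sheet. Matrigel is itself a mouse basement membrane extract, and these data measure RNA made by the organoid cells, not the protein in the dome.

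Library depth ran from 9094295 to 28903831 counts, and the 44 genes together took 0.22% to 0.427% of the counts of a library. The mitochondrial share of counts was 12.7% to 15.5% for replicate 1 of all groups, against 18.6% to 27.1% for replicate 2. Spdef itself had 30 and 29 counts in the mT6 controls and 0 and 2 in the mT6 knockouts, but only 2 and 4 counts in the mT69a controls against 2 and 0 in the knockouts, which is too few to check the deletion there. In the libraries labelled SPDEF vector mouse Spdef had 1 and 0 counts in mT6 and 2 and 0 in mT69a, so directions for that group rest on the label, and re-expression was not seen in the mouse gene's counts. Whether RNA from the vector would be counted as mouse Spdef was not tested. All 6 epithelial markers were present in every library with a summed level of 3755 to 6880 CPM (counts scaled to a fixed library total), while the 11 fibroblast markers summed to 0 to 0.762 CPM, with Col3a1, Lum and Thy1 at 0 throughout, and the 6 endothelial markers to 0 to 1.07 CPM. The 6 immune markers summed to 2.35 to 12.1 CPM, with Adgre1 and Cd3e at 0, and the 5 acinar markers to 0 to 0.688 CPM.

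In the following, a gene rose or fell where its adjusted p in edgeR's quasi-likelihood test was below 0.05. The adjustment was by Benjamini-Hochberg over all 14473 genes tested, and the fit left out the replicate number unless a block is named. Levels are CPM for 1 gene across libraries and TPM, which is per length, where different genes are compared. Fold changes are on the log2 scale, n = 2 libraries per group. The value after ±, called SE, is an approximate standard error: the size of the fold change over the square root of the test's F statistic. Where a group holds few counts, as for Nid1 and Fbln1, it can be smaller than counting error alone. Whether the 2 libraries of a group were separate cultures is not in the labels, so p-values here reflect only how far libraries spread, which may be technical.

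The knockout clones of both lines differed from their controls in this gene set in unlike ways. In mT6, 2 of the 37 tested members rose and 6 fell, a background in which 3.23% of all tested genes were called, 1.28% higher and 1.96% lower. In mT69a, 16 members rose and 0 fell, where 8.6% of all genes were called, 4.88% higher and 3.71% lower. Members were chosen with earlier results of these data known. Their counts beside the share of all genes, here and for each family, are a description and not a test of the set. The median log2 fold change of the members was -0.25 in mT6 and 0.79 in mT69a, while the medians over all tested genes were 0.01 and -0.01. The mT69a median was 0.54 with 5 genes of low counts set otherwise. Col4a6, with 3 or fewer counts in both groups, was set to 0. Genes with 0 counts in 1 group were set to their bound, and those with 1 to 3 counts to the ratio of summed counts. The count in mT69a was 5 without control library 1, 7 without knockout library 1, 8 without control library 2 and 9 without knockout library 2, and all of those calls were rises. In mT6 the count of 8 became 5 without knockout library 1 or control library 2, and 3 without knockout library 2. In each of those fits without 1 library, fewer of all tested genes were called too. With the replicate number as a block in the fit 4 members rose and 7 fell in mT6, where 12.5% of all tested genes were called, and 18 rose in mT69a, where 16.0% were called.

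The SPDEF vector was followed by fewer calls. Against the knockout, 1 member rose and 2 fell in mT6, where 2.69% of all tested genes were called (1.55% higher, 1.14% lower), and 1 rose and 5 fell in mT69a, where 4.25% were called (2.57% higher, 1.68% lower). With the replicate block the mT6 count was 5, where 7.29% of all tested genes were called, and the mT69a count 9, where 10.6% were. The mT69a count of 6 became 2 without knockout library 2 and 3 without any one of knockout library 1, SPDEF vector library 1 and SPDEF vector library 2. Calls over all tested genes were fewer in each of those fits as well. In bulk RNA, fewer cells making a transcript and less RNA per cell cannot be told apart, and that holds for every value given here.

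**Figure D1:**
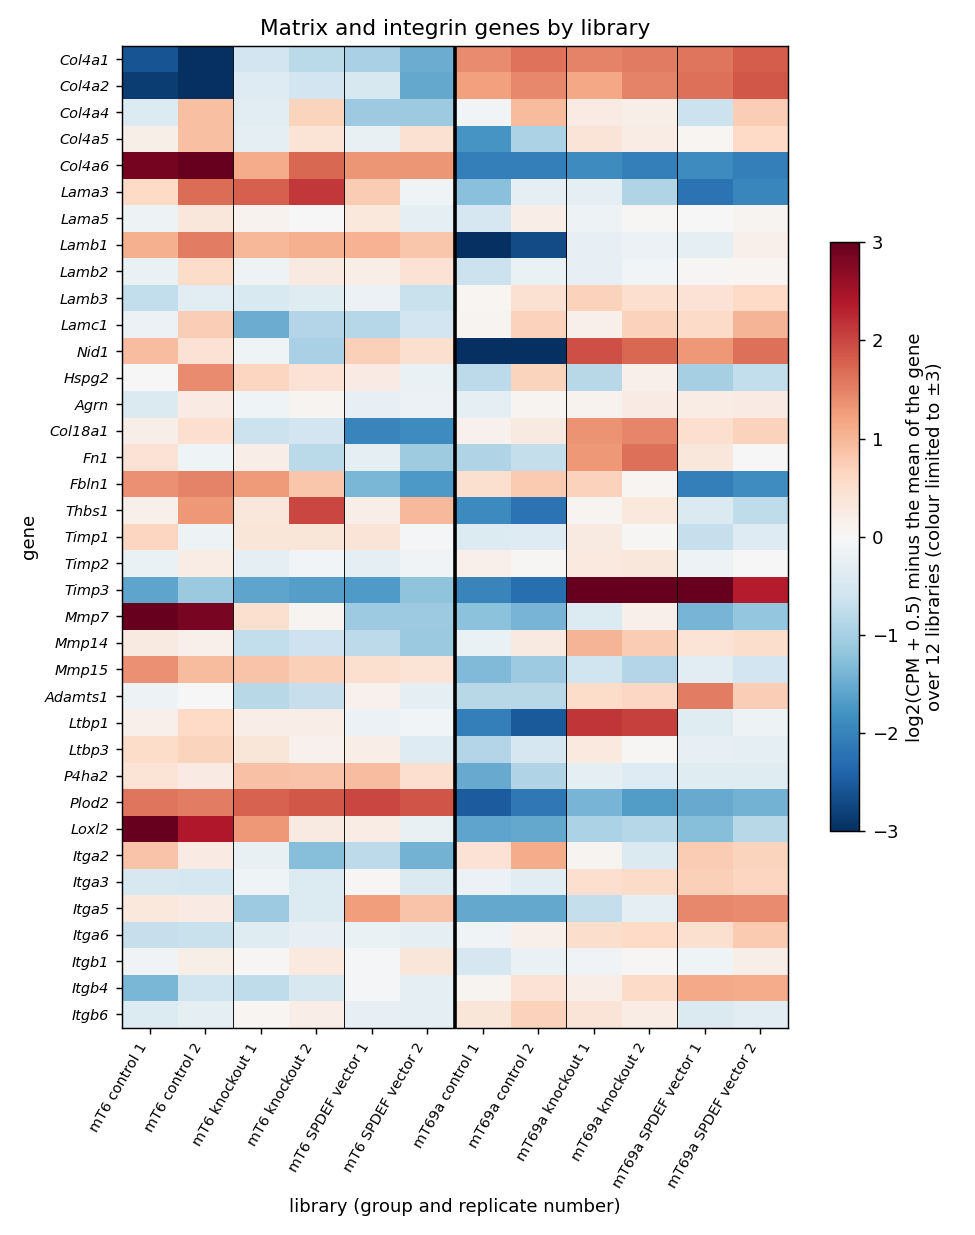
Level of each of the 37 tested members (rows, ordered by family) in each of the 12 libraries (columns, named by line, condition and replicate number), as log2(CPM + 0.5) minus the mean of that gene. Col4a1 and Col4a2 are lowest in the mT6 controls, at 8.86 to 14.1 CPM, and Nid1, Lamb1, Timp3 and Ltbp1 are lower in the mT69a controls than in the mT69a knockouts and SPDEF vector libraries.

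Collagen IV chains form trimers of alpha1 and alpha2 in nearly all basement membranes and of alpha5 with alpha6 or alpha3 and alpha4 in specialised ones. Col4a1, which encodes the alpha1 chain, was at 14.1 and 10.04 CPM in the mT6 control libraries, 58.8 and 49.9 CPM in the knockout and 44.1 and 30.9 CPM with the SPDEF vector. Every mT6 knockout and SPDEF vector library lay above both controls. Col4a1 rose in the mT6 knockout by 2.18 ± 0.21 (adjusted p = 0.000654), and the value with the SPDEF vector was 1.65 ± 0.21 above control (adjusted p = 0.00141). Col4a2, the alpha2 chain, was at 9.98 and 8.86 CPM in the mT6 controls, 56.9 and 50.4 CPM in the knockout and 53.9 and 25.4 CPM with the vector. It rose with its partner, by 2.51 ± 0.30 in the knockout (adjusted p = 0.00248). Neither chain passed the test between SPDEF vector and knockout in mT6, and both knockout calls held without any one library.

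In mT69a both chains were abundant in all 6 libraries. Col4a1 lay at 233 and 270 CPM in the controls, 247 and 261 CPM in the knockouts and 266 and 311 CPM with the vector. Col4a2 lay at 177 and 204, 169 and 210, and 238 and 273 CPM in the same order, so that the control and knockout values of both chains interleaved. The control lines differed by 4.39 ± 0.23 for Col4a1 (adjusted p = 1.28e-06) and by 4.34 ± 0.32 for Col4a2 (adjusted p = 1.22e-05), higher in mT69a. The knockout effect on the pair differed between the lines by -2.17 ± 0.29 for Col4a1 (adjusted p = 0.0018) and -2.52 ± 0.40 for Col4a2 (adjusted p = 0.0052). The TPM ratio of Col4a1 to Col4a2 within a library stayed between 0.998 and 2.07 over all 12 libraries.

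Col4a1 and Col4a2 are neighbours on chromosome 8, read away from each other on opposite strands. Their promoter windows, from 250 bases before to 50 bases after the start site in RefSeq's GRCm38.p6 table, are shown because the chains moved together. The RefSeq start sites are 21 bases apart and the windows share 78 bases. The Col4a1 window is chr8:11312777-11313076 on the minus strand and the Col4a2 window chr8:11312555-11312854 on the plus strand, each printed 5′ to 3′ on its own gene's strand. Capitals mark the GC box GGGCGG on either strand. They also mark the box CCAAT, likewise read on either strand.
Col4a1: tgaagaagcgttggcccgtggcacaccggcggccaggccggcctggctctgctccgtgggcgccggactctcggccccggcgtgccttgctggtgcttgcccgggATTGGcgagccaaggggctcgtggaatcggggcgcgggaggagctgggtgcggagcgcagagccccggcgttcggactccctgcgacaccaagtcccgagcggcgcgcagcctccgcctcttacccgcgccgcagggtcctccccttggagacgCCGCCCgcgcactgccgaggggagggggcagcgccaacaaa
Col4a2: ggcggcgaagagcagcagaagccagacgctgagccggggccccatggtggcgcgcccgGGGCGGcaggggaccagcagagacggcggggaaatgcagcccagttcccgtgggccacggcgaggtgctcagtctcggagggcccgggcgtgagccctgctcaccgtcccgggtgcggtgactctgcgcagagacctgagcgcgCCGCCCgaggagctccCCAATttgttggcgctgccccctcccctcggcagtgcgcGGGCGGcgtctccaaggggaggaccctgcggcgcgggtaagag
GGGCGG was found 1 time in the Col4a1 window and 3 times in the Col4a2 window, and CCAAT 1 time in each, while 35.7% of 32851 RefSeq promoter windows of that length held GGGCGG and 37.4% held CCAAT. The match is a description of the letters and not of a bound site.

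The X-linked chains moved otherwise. Col4a6, the alpha6 chain, was at 14.6 and 24.5 CPM in the mT6 controls, 3.98 and 6.30 CPM in the knockouts and 4.67 and 4.69 CPM with the vector. Both controls lay above the other 4 libraries, and Col4a6 fell in the knockout by 1.91 ± 0.34 on the log2 scale (adjusted p = 0.0186). That call was lost without mT6 knockout library 1 (adjusted p = 0.128), control library 2 (0.156) or knockout library 2 (0.0582). In mT69a Col4a6 was at 0 to 0.0593 CPM in all 6 libraries, with 0 counts in the controls against 877 in those of mT6, which makes the mT6 controls at least 219-fold higher against a floor of 3 counts over the group. Col4a5, its alpha5 partner on the same chromosome, was at 33.4 and 56.2 CPM in the mT6 controls and 24.7 and 39.8 CPM in the knockouts, ranges that overlap.

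In mT69a Col4a5 was at 8.31 and 15.1 CPM in the controls, 38.8 and 34.8 CPM in the knockouts and 31.0 and 45.1 CPM with the vector. The controls lay below the other 4 libraries. Col4a5 rose in the mT69a knockout by 1.66 ± 0.39 (adjusted p = 0.0305), a call lost without control library 1 (0.174), knockout library 1 (0.14), control library 2 (0.0504) or knockout library 2 (0.0882). Col4a4, the alpha4 chain, was at 0 to 1.55 CPM and Col4a3 at 0 to 0.584 CPM over all libraries. With the vector Col4a4 had 0 counts in mT6 against 28 in the knockout, at least 5.04-fold lower against the floor of 3 counts over the group, with an adjusted p of 0.279, or 0.0413 under the replicate block. The alpha1 and alpha2 chains made up 20.4% to 37.7% of the collagen IV TPM in the mT6 controls, 70.3% to 81.9% in the mT6 knockouts, 61.0% to 79.7% with the vector, and 91.9% to 98.3% in mT69a.

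**Figure D2:**
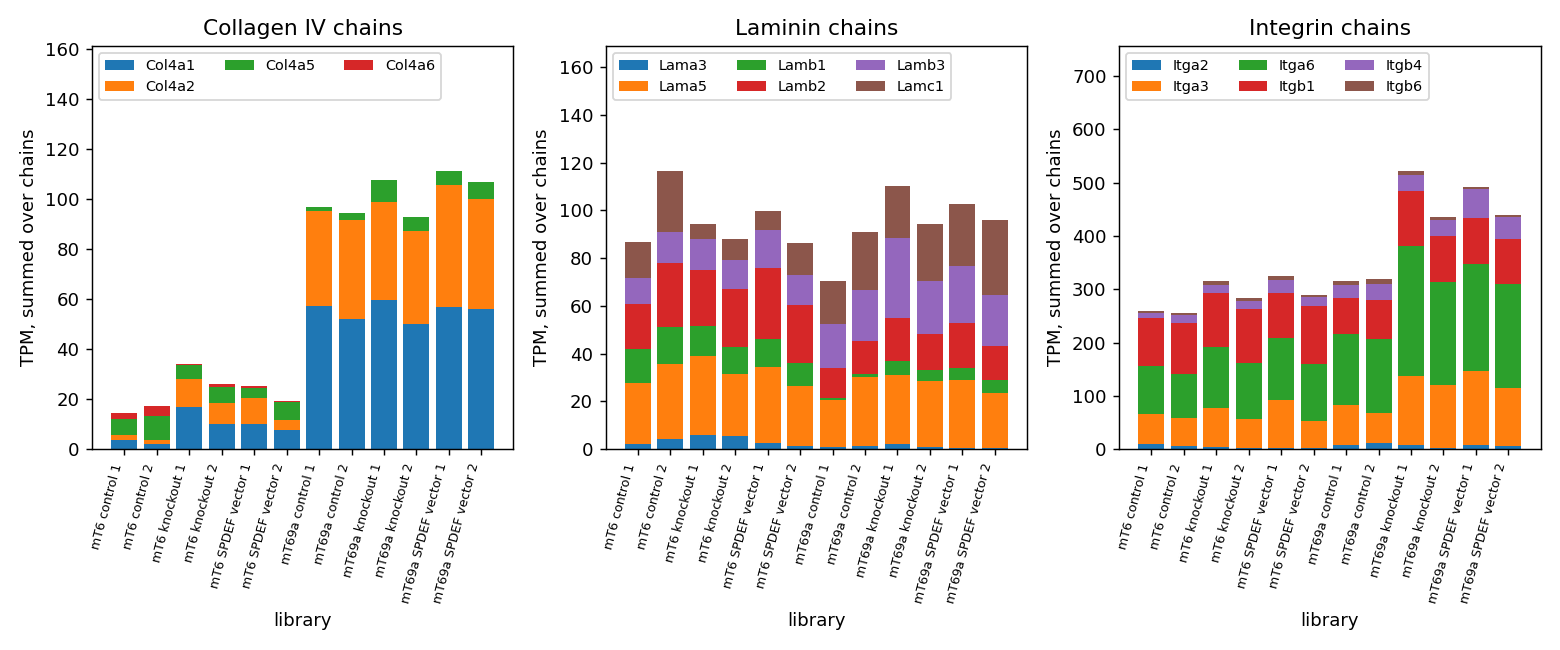
Summed TPM of 4 collagen IV, 6 laminin and 6 integrin chains in each library, stacked by chain (colours). Collagen IV summed over all 6 chains to 14.7 to 17.4 TPM in the mT6 controls and 93.0 to 111 TPM in mT69a, and Itga6, Itgb1 and Itga3 made up most of the integrin TPM.

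Laminins are trimers of an alpha, a beta and a gamma chain. None of the 6 tested laminin chains passed the test for knockout in mT6, and 1, Lamb1, passed in mT69a, against 3.23% and 8.6% of all tested genes. Lamb1, the beta1 chain, was at 2.501 and 4.17 CPM in the mT69a controls, 24.8 and 25.9 CPM in the knockouts and 23.9 and 32.8 CPM with the vector. The controls lay below all other libraries of either line. Lamb1 rose in the mT69a knockout by 2.93 ± 0.26 (adjusted p = 9.01e-05), while the median log2 fold change of the 565 tested genes on its chromosome, 12, was -0.34. Its mT6 levels were 62.1 and 85.4 CPM in controls, 58.7 and 61.5 CPM in knockouts and 61.1 and 52.9 CPM with the vector. Among the beta chains Lamb1 took 28.4% to 32.4% of the TPM in the mT6 controls, 2.73% to 4.02% in the mT69a controls and 10.3% to 11.02% in the mT69a knockouts.

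Lamc1, the gamma1 chain shared by most laminins, was at 92.3 and 174 CPM in the mT6 controls, 37.2 and 56.7 CPM in the knockouts and 57.0 and 69.8 CPM with the vector. Both controls lay above the other 4 libraries, but within each condition the library numbered 2 was the higher one. Its log2 fold change in the mT6 knockout was -1.50 ± 0.36 with an adjusted p of 0.0557, and -1.48 with an adjusted p of 1.88e-05 when the replicate number was a block. The tested genes of chromosome 1, where it lies, had a median of -0.28 in that comparison, and the part of such a chromosome-wide shift in the result was not tested. In mT69a Lamc1 lay at 111 to 212 CPM and overlapped between control and knockout.

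The most abundant laminin alpha chain was Lama5, which took 82.6% to 98.6% of the alpha chain TPM and lay at 195 to 353 CPM, with overlapping groups in both lines. Lama3, the alpha3 chain of the hemidesmosome laminin, was at 17.2 and 37.04 CPM in the mT6 controls, 40.2 and 50.7 CPM in the knockouts and 19.3 and 10.3 CPM with the vector. In mT69a it lay at 4.44 and 9.16, 9.19 and 5.74, and 2.02 and 2.53 CPM. No Lama3 comparison within a line passed the test. The isoform estimates differed between the lines. The long transcript of 10548 bases took 71.6% and 72.7% of the Lama3 TPM in the mT6 controls, 49.2% and 71.4% in the knockouts and 34.5% and 39.0% with the vector, against 2.5% to 15.3% in mT69a, where the short transcript of 5551 bases took the rest. These shares are model estimates without a test.

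Lamb3, the beta3 chain, joins the alpha3 chain in that laminin. It lay at 36.9 to 55.0 CPM in mT6 and 64.3 to 99.8 CPM in mT69a, and Lamb2, the beta2 chain, at 41.3 to 95.0 CPM, with no call within a line unless the replicate number was a block. Lama1 had no count in any library.

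Nidogen 1, encoded by Nid1, bridges the laminin and collagen IV networks, and it moved in opposite directions in the lines. In mT69a it was at 0.188 and 0.0673 CPM in the controls, 38.0 and 32.9 CPM in the knockouts and 24.4 and 31.6 CPM with the vector. The controls held 4 counts in all against 1084 in the knockouts, a ratio of 278 with a 95% exact interval of 108 to 1021. Nid1 rose by 8.01 ± 0.48 (adjusted p = 1.03e-05), but the size of the rise is known no better than that interval, which the SE understates. In mT6 it was at 18.7 and 13.1 CPM in the controls, 8.76 and 4.62 CPM in the knockouts and 16.0 and 13.7 CPM with the vector. Both mT6 knockouts lay below the other 4 libraries, and Nid1 fell by 1.27 ± 0.30 on the log2 scale (adjusted p = 0.0488). The mT6 call was lost in 11 of the 12 fits that left out 1 library, the exception being without mT6 knockout library 1, and its adjusted p reached 0.221 without mT6 knockout library 2. Between SPDEF vector and knockout the mT6 value was 1.18 ± 0.30 (adjusted p = 0.0795), or 1.21 with an adjusted p of 0.0185 under the replicate block. Nid2, the other nidogen, was at 0 to 0.0714 CPM in mT6 and 0 to 0.688 CPM in mT69a.

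Col18a1 encodes collagen XVIII, a basement membrane heparan sulphate proteoglycan whose end fragment is endostatin. It was at 168 and 209 CPM in the mT6 controls, 94.5 and 99.97 CPM in the knockouts and 37.4 and 39.9 CPM with the vector. The mT6 groups were fully separate and ordered control, knockout, vector. Col18a1 fell in the mT6 knockout by 0.96 ± 0.14 on the log2 scale (adjusted p = 0.00503, or 0.0523 without mT6 knockout library 1) and was lower with the vector than in the knockout by a log2 change of -1.33 ± 0.14 (adjusted p = 0.000924). In mT69a its levels were 162 and 178 CPM in controls, 376 and 407 CPM in knockouts and 210 and 240 CPM with the vector. Here the knockouts were highest and the groups did not overlap either. It rose in the mT69a knockout by 1.20 ± 0.14 (adjusted p = 0.000423) and fell with the vector by 0.80 ± 0.14 (adjusted p = 0.00837), a call lost without SPDEF vector library 1 (0.117) or knockout library 2 (0.0741). An overlapping gene on the other strand, Slc19a1, reached 16.9 CPM, and whether counting used strand is not given in the sources used here.

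Agrin and perlecan did not pass the test for knockout or vector in either line. Agrn lay at 123 to 198 CPM in every library. Hspg2, which encodes perlecan, lay at 10.6 to 58.3 CPM, with control library 2 the highest in each line.

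Among the other matrix glycoproteins Thbs1, which encodes thrombospondin 1, was the most abundant, with a mean of 10.8 TPM over all libraries. It was at 48.6 and 108 CPM in the mT6 controls, 55.1 and 176 CPM in the knockouts and 50.1 and 86.3 CPM with the vector, where library 2 was the higher one in each group and the groups overlapped. Its mT69a levels were 11.3 and 9.02 CPM in controls, 46.3 and 54.5 CPM in knockouts and 32.0 and 25.7 CPM with the vector, and those groups were separate. Thbs1 rose in the mT69a knockout by 2.31 ± 0.58 (adjusted p = 0.0453), but the adjusted p was 0.0573 with the replicate block, and the call was lost in 8 of the 12 fits without 1 library (up to 0.256, without mT69a control library 2).

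Fn1, which encodes fibronectin, was at 0.0625 and 0.135 CPM in the mT69a controls, 2.10 and 2.78 CPM in the knockouts and 0.831 and 0.541 CPM with the vector. Its 71 knockout counts against 3 in the controls give a ratio of 24.3 with a 95% exact interval of 7.97 to 120, and Fn1 rose with an adjusted p of 0.0196. That call was lost without any one of the 4 libraries compared (0.0698 to 0.148). Fibronectin RNA in mT6 stayed at 0 to 0.914 CPM. Sparc had no count in any library, Tgfbi was above 0 in 1 library (0.352 CPM), Tnc, which encodes tenascin C, in 3 (up to 1.17 CPM) and Bgn, which encodes biglycan, up to 0.375 CPM.

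Among proteases and inhibitors, 2 of 7 fell in the mT6 knockout and 3 of 7 rose in the mT69a knockout, against 1.96% and 4.88% of all tested genes in those directions. Timp3 encodes the tissue inhibitor of metalloproteinases that binds to the matrix. It was at 0.688 and 0.471 CPM in the mT69a controls, 62.6 and 68.5 CPM in the knockouts and 39.3 and 23.5 CPM with the vector. The controls were lowest and the knockouts highest, without overlap. Timp3 rose by 6.79 ± 0.35 in the mT69a knockout (adjusted p = 4.03e-06) and fell by 1.06 ± 0.24 with the vector (adjusted p = 0.0353), the second call being lost in 7 of 12 fits without 1 library (up to 0.261, without SPDEF vector library 2). In mT6 it stayed at 0.935 to 1.64 CPM in all groups. Timp3 lies within Syn3 on the other strand, and Syn3 reached 0.964 CPM at most. Timp1 was at 0.119 to 1.07 CPM and Timp2, the most abundant of the inhibitors, at 31.6 to 48.5 CPM, neither called within a line. For Timp2 in mT69a, the vector against knockout value was -0.41 ± 0.15 (adjusted p = 0.208, or 0.0464 with the replicate block).

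Mmp7 encodes matrilysin, a secreted metalloproteinase of glandular epithelium. In mT6 it was at 23.4 and 8.96 CPM in the controls, 1.33 and 0.886 CPM in the knockouts and 0.117 CPM in both SPDEF vector libraries. The 3 groups did not overlap, although the controls differed more than 1.5-fold from each other. Mmp7 fell in the mT6 knockout by 3.89 ± 0.56 on the log2 scale (adjusted p = 0.00503, or 0.0672 without mT6 knockout library 2). With the vector, 2 counts against 33 in the knockout make a ratio 8.91-fold lower (95% exact interval 2.28 to 76.6), which did not pass the test. In mT69a the gene held 1 count in the controls, 20 in the knockouts and 1 with the vector. The knockout to control ratio was 20.5 (3.28 to 850) at an adjusted p of 0.0514, or 0.0279 with the replicate block, and the vector to knockout comparison had an adjusted p of 0.0967, or 0.0452 with the block.

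Mmp14, a membrane-bound collagenase, and Mmp15, a membrane-bound relative, were the other metalloproteinases. Mmp14 was at 31.5 and 29.1 CPM in the mT6 controls, 15.3 and 16.8 CPM in the knockouts and 15.0 and 11.9 CPM with the vector, with the controls above the rest. In mT69a it was at 22.8 and 31.4 CPM in the controls, 53.4 and 44.8 CPM in the knockouts and 34.9 and 37.5 CPM with the vector, with the knockouts highest. Mmp14 fell by 0.91 ± 0.18 in the mT6 knockout on the log2 scale (adjusted p = 0.0249) and rose by 0.86 ± 0.18 in the mT69a knockout (adjusted p = 0.0132). The mT6 call was lost in 6 of 12 fits without 1 library (up to 0.164, without mT6 knockout library 1) and the mT69a call without control library 1 (0.103) or knockout library 1 (0.121). In mT6 the tested genes of chromosome 14, which carries Mmp14 and Loxl2, had a median of -0.37, and the part of that shift was not tested. Mmp15 was at 81.5 and 60.8, 57.0 and 51.1, and 43.7 and 41.2 CPM in the mT6 groups and 12.002 to 24.5 CPM in mT69a, with no knockout call (mT69a 0.49 ± 0.18, adjusted p = 0.153, or 0.0448 with the block).

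Adamts1, a secreted protease that cleaves large proteoglycans, was below 1 CPM everywhere but in 1 mT69a SPDEF vector library. The mT69a controls had 0 counts, the knockouts 25 and the vector libraries 46. The mT69a knockout was at least 8.54-fold higher than control against the floor of 3 counts over the group, a rise with an adjusted p of 0.0093, lost without control library 1 (0.0568) or control library 2 (0.059).

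**Figure D3:**
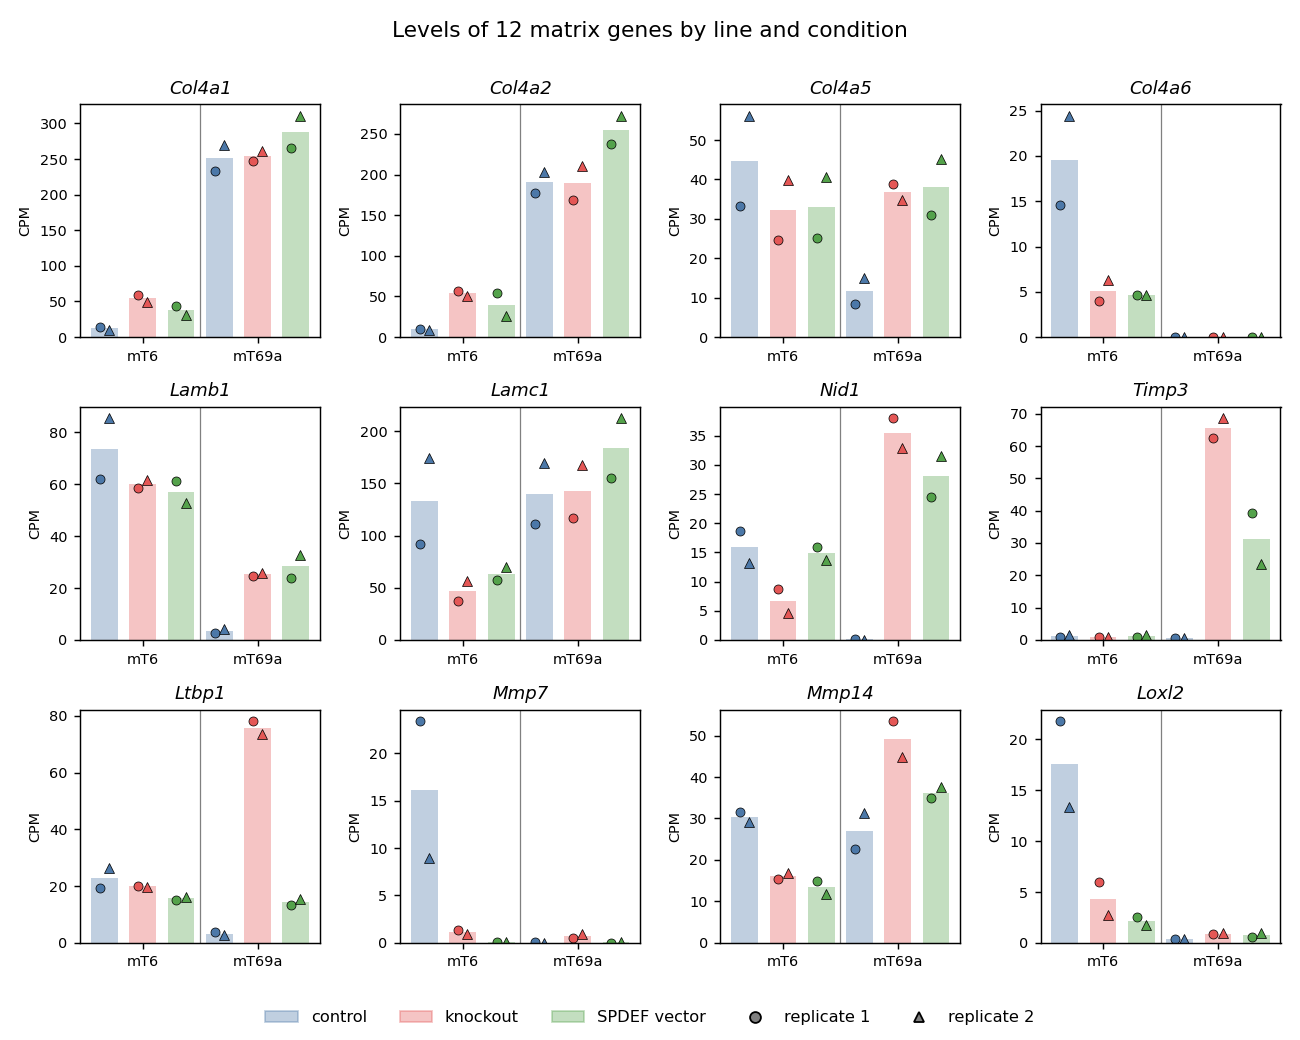
CPM of 12 members in each library: circles are replicate 1, triangles replicate 2, bars the mean of 2 libraries, and colours the condition. In mT69a Nid1, Timp3, Lamb1 and Ltbp1 rise from the controls to the knockouts, Timp3 from 0.688 and 0.471 to 62.6 and 68.5 CPM, while in mT6 Col4a6, Mmp7, Mmp14 and Loxl2 are lower in the knockouts.

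Latent TGF-beta binding proteins tether the growth factor to the matrix, and the remaining enzymes hydroxylate or cross-link collagen. In mT69a, 4 of these 5 genes rose in the knockout, against 4.88% of all tested genes. Ltbp1 was at 3.81 and 2.63 CPM in the mT69a controls, 78.1 and 73.5 CPM in the knockouts and 13.3 and 15.6 CPM with the vector. The 3 groups were separate, with the vector libraries between the others. It rose by 4.55 ± 0.22 in the knockout (adjusted p = 2.77e-06) and fell by 2.39 ± 0.19 with the vector (adjusted p = 0.00014), and both calls held without any one library. In mT6 Ltbp1 lay at 15.2 to 26.3 CPM with the knockouts inside the control range. Ltbp3, a related gene, was at 28.6 and 36.97 CPM in the mT69a controls, 65.3 and 54.7 CPM in the knockouts and 44.7 and 43.7 CPM with the vector, and rose in the knockout by 0.87 ± 0.20 (adjusted p = 0.0219). The Ltbp3 call was lost without control library 1 (0.162), knockout library 1 (0.17) or control library 2 (0.0523).

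Plod2, a lysyl hydroxylase of collagen, and P4ha2, a prolyl hydroxylase subunit, were higher in mT6 than in mT69a throughout. Plod2 was at 132 to 183 CPM in mT6, against 7.69 and 9.83 CPM in the mT69a controls, 17.0 and 14.0 CPM in the knockouts and 15.7 and 16.6 CPM with the vector. It rose in the mT69a knockout by 0.83 ± 0.15 (adjusted p = 0.00743), a call lost without control library 1 (0.0679) or knockout library 1 (0.0885). P4ha2 was at 7.44 and 11.6 CPM in the mT69a controls and 18.1 and 16.9 CPM in the knockouts, and rose by 0.88 ± 0.21 (adjusted p = 0.0274). Its call was lost without control library 1 (0.161), knockout library 1 (0.158), knockout library 2 (0.0862) or SPDEF vector library 2 (0.0522). In mT6 P4ha2 lay at 26.2 to 42.8 CPM, with no call.

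Loxl2, a lysyl oxidase that cross-links collagen IV, went the other way in mT6. It was at 21.8 and 13.4 CPM in the mT6 controls, 6.01 and 2.71 CPM in the knockouts and 2.57 and 1.76 CPM with the vector. The controls were above the other 4 libraries, and Loxl2 fell in the knockout by 2.04 ± 0.38 on the log2 scale (adjusted p = 0.0194). The call was lost without mT6 control library 1 (0.131) or knockout library 2 (0.111). In mT69a it stayed at 0.375 to 0.992 CPM.

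Integrins were the most abundant family of the set by TPM, and the laminin-binding chains led it. Itga6, the alpha6 chain, had 82.7 to 116 TPM in mT6 and 133 to 243 TPM in mT69a. In CPM it was at 412 and 496 in the mT69a controls, 647 and 674 in the knockouts and 621 and 765 with the vector, with the controls lowest. Itga6 rose in the mT69a knockout by 0.54 ± 0.14 (adjusted p = 0.0413), but the call was lost in 11 of 12 fits without 1 library (up to 0.227, without mT69a control library 1), all but that without mT6 SPDEF vector library 1. In mT6 it was at 277 and 282, 346 and 375, and 389 and 367 CPM, and the knockout value of 0.36 ± 0.14 had an adjusted p of 0.216, or 0.0389 with the block.

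Itga3, the alpha3 chain, was at 272 and 243 CPM in the mT69a controls, 434 and 457 CPM in the knockouts and 508 and 483 CPM with the vector, again with the controls lowest. It rose in the mT69a knockout by 0.79 ± 0.17 (adjusted p = 0.0144), a call lost without any one of the 4 libraries compared (0.0568 to 0.136). In mT6 it was at 222 and 214, 283 and 231, and 315 and 227 CPM, with no call. Itgb1, the beta1 chain that pairs with most alpha chains, lay at 285 to 395 CPM in mT6 and 215 to 343 CPM in mT69a. The mT69a knockout value of Itgb1 was 0.31 ± 0.19 (adjusted p = 0.439, or 0.0267 with the block).

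Itgb4, the hemidesmosome beta4 chain that pairs with alpha6, was at 40.2 and 69.9 CPM in the mT6 controls, 62.4 and 76.0 CPM in the knockouts and 101 and 86.2 CPM with the vector. In mT69a it was at 111 and 143, 121 and 157, and 234 and 230 CPM. In each line the vector libraries were above the other 4. The vector against knockout value in mT69a was 0.74 ± 0.25 (adjusted p = 0.155, or 0.044 with the block), and against control 0.87 ± 0.25 (adjusted p = 0.0456), the latter lost in 10 of 12 fits without 1 library (up to 0.253, without control library 1).

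Itgb6, the beta6 chain of an integrin that activates latent TGF-beta, was at 24.1 and 30.4 CPM in the mT69a controls, 24.5 and 21.8 CPM in the knockouts and 13.6 and 14.9 CPM with the vector. The vector libraries were lowest, and Itgb6 fell against the knockout by 0.70 ± 0.15 (adjusted p = 0.0262). That call was lost without any one of the 4 libraries compared (0.0805 to 0.232). In mT6 it was at 13.8 and 14.9, 19.5 and 21.3, and 15.5 and 15.4 CPM, and the knockout value of 0.50 ± 0.15 had an adjusted p of 0.109, or 0.0304 with the block. Its alpha partner Itgav, which is not a member, was at 60.3 and 83.3 CPM in the mT69a controls and 112 and 108 CPM in the knockouts, a rise of 0.62 ± 0.16 (adjusted p = 0.0359). Itga2, the collagen-binding alpha2 chain, lay at 10.9 to 66.1 CPM. It was at 55.4 and 35.8 CPM in the mT6 controls, 25.7 and 12.1 CPM in the knockouts and 17.3 and 10.9 CPM with the vector, with no knockout call. Against the Rosa26 control it fell with the vector in mT6, the 1 integrin chain called in that comparison.

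Itga5, Col18a1 and Fbln1 were called in both lines, in the same direction, between SPDEF vector and knockout libraries of the same line. How many of all tested genes were called in both lines was not counted, so no background share stands beside these members. Itga5 encodes the alpha5 chain of the fibronectin receptor. It was at 1.29 and 1.21 CPM in the mT6 controls, 0.177 and 0.590 CPM in the knockouts and 2.92 and 2.11 CPM with the vector. In mT69a it was at 0 in both controls, 0.376 and 0.696 CPM in the knockouts and 3.38 and 3.34 CPM with the vector. The vector libraries were highest in both lines. Itga5 rose with the vector by 2.58 ± 0.56 in mT6 (adjusted p = 0.0479) and 2.68 ± 0.55 in mT69a (adjusted p = 0.025). The mT6 call was lost in all 12 fits without 1 library (0.0507 to 0.198) and the mT69a call without any one of the 4 libraries compared (0.0864 to 0.2). In mT69a it had also risen in the knockout, at least 5.12-fold against the floor of 3 counts over the group (15 counts against 0, adjusted p = 0.0151), a call lost without control library 1 (0.0768), control library 2 (0.0802) or knockout library 2 (0.0611).

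Fbln1 encodes fibulin 1, a matrix glycoprotein that binds nidogen and fibronectin. It was at 6.70 and 7.36 CPM in the mT6 controls, 6.28 and 4.53 CPM in the knockouts and 0.584 and 0.352 CPM with the vector. In mT69a it was at 3.44 and 4.31, 4.03 and 2.44, and 0.178 and 0.271 CPM. The vector libraries lay below all others in both lines, and controls and knockouts overlapped in mT69a. With the vector Fbln1 fell by 3.49 ± 0.43 in mT6 (adjusted p = 0.00205) and by 3.87 ± 0.45 in mT69a (adjusted p = 0.000978) on the log2 scale, and neither call was lost without any one library. The difference between lines was tested for all members, and 0 of 37 passed by edgeR, where 0.0138% of all tested genes were called. Unadjusted p was below 0.05 for 6 of them and for 711 of all 14473 genes. DESeq2 and the replicate block called 1 member each, where DESeq2 called 44 of all genes and the block 0.38%. By the block it was Ltbp1 (-2.07, adjusted p = 0.00213, against -2.06 ± 0.27 and 0.0554 without the block). Without any one of the 4 control libraries the count was 1.

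**Figure D4:**
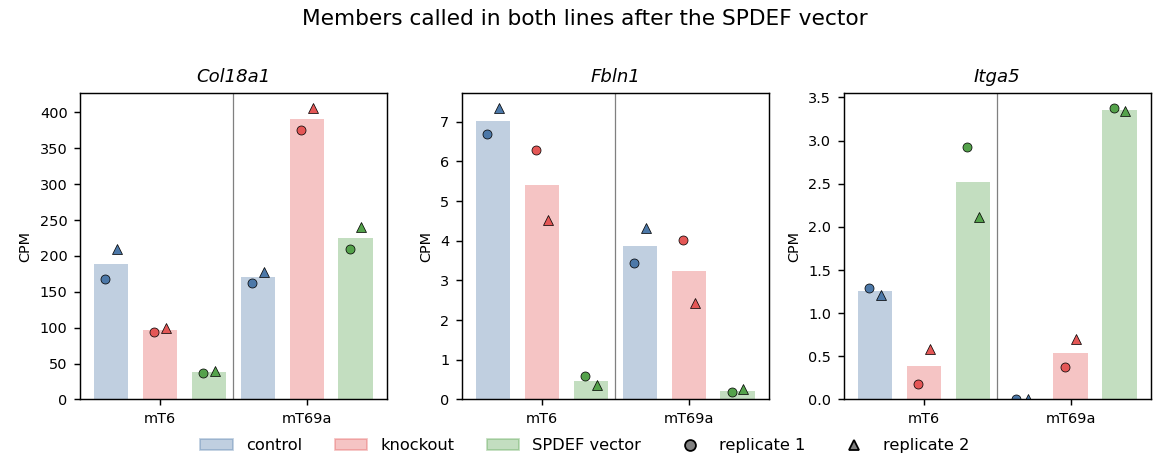
CPM of Col18a1, Fbln1 and Itga5 in each library, with circles for replicate 1, triangles for replicate 2, bars for the mean of 2 libraries and colours for the condition. In both lines the SPDEF vector libraries lie below the knockouts for Col18a1 and Fbln1 and above them for Itga5, which reaches 3.38 CPM at most.

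SPDEF is an ETS-family factor that is known to prefer the core GGAT where most of the family bind GGAA. The promoter windows of the genes called in both lines are printed from the same RefSeq GRCm38.p6 table, 5′ to 3′ on the gene's strand, with GGAT in capitals wherever it reads on either strand. They are chr10:77166481-77166780 on the minus strand for Col18a1, chr15:85205758-85206057 on the plus strand for Fbln1 and chr15:103366742-103367041 on the minus strand for Itga5.
Col18a1: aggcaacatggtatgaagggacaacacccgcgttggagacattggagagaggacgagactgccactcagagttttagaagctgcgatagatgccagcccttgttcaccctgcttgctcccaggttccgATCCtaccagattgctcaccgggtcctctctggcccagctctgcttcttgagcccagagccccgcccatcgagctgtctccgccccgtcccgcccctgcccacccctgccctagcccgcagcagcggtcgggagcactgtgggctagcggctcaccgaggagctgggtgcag
Fbln1: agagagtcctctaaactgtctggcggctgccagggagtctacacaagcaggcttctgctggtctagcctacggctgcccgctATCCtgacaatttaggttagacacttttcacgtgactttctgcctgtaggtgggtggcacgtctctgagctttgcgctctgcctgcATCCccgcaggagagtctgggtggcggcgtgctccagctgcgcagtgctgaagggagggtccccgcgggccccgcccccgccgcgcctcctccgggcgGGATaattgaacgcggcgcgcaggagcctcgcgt
Itga5: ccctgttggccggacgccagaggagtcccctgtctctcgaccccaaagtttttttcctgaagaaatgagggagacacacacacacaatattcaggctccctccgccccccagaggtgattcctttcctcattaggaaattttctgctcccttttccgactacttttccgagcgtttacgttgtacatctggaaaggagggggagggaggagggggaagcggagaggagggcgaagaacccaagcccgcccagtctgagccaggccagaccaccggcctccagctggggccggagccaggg
GGAT occurred 1 time in the Col18a1 window, 3 times in the Fbln1 window and 0 times in the Itga5 window, counting both strands. Of all 32851 promoter windows in the table, 79.6% held it. The longer CCGGAT was in none of the 3 windows and in 6.04% of all windows, and GGAA was in 96.0% of all. These counts describe letters in a window of 300 bases.

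Compared with the Rosa26 control, the SPDEF vector libraries differed in more members than from the knockout. In mT6, 2 members were higher and 8 lower, where 8.61% of all tested genes were called, 3.91% higher and 4.7% lower. With the replicate block the mT6 counts were 5 and 12, where 19.0% of all genes were called. In mT69a, 13 were higher and 2 lower, where 12.4% were called, 7.01% higher and 5.37% lower, and with the block 17 and 2, where 22.5% were called. These comparisons share their libraries with those above, so they are given beside them and not as a further check. In mT69a Timp3 was 5.74 ± 0.35 above control (adjusted p = 8.12e-06), Nid1 7.66 ± 0.49 (1e-05), Lamb1 3.09 ± 0.26 (4.81e-05) and Ltbp1 2.16 ± 0.21 (0.000122). In mT6 Col18a1 was 2.29 ± 0.15 below control on the log2 scale, or -2.29 (adjusted p = 3.21e-05), and Mmp7 held 2 counts against 558, 116-fold lower (95% exact interval 31.9 to 959, adjusted p = 0.000721). Mmp15 was called in both lines in opposite directions, -0.74 ± 0.17 in mT6 (adjusted p = 0.0283) and 0.78 ± 0.18 in mT69a (adjusted p = 0.0189). The mT6 Mmp15 call was lost without control library 1 (0.178), SPDEF vector library 1 (0.0896) or SPDEF vector library 2 (0.125), and the mT69a call without control library 1 (0.148) or SPDEF vector library 1 (0.164).

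Between SPDEF vector and control the block added 7 calls in mT6 and 4 in mT69a, and took none away. In mT6 they were higher Itgb4 (0.79, adjusted p = 0.0266 with the block against 0.0957 without), Itga6 (0.44, 0.0114 against 0.0918) and Plod2 (0.39, 0.0368 against 0.126). Lower were Lamc1 (-1.02, 0.000178 against 0.102), Ltbp3 (-0.69, 0.0268 against 0.0651), Ltbp1 (-0.54, 0.0448 against 0.117) and Col4a4 (0.015 against 0.122), which had 0 counts with the vector. In that comparison the tested genes had a median of -0.49 on chromosome 17, which carries Ltbp1. It was -0.30 on chromosome 19 (Ltbp3) and -0.31 on chromosome 1 (Lamc1 and Col4a4). The part of these shifts was not tested. In mT69a the block added higher Lamb2 (0.49, adjusted p = 0.032 against 0.292), Lamc1 (0.41, 0.032 against 0.577), Col18a1 (0.40, 0.00681 against 0.0866) and Itgb1 (0.37, 0.00987 against 0.28).

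The difference between lines in the knockout effect was tested directly. It passed for 15 of 37 members, 13 with the mT69a effect higher and 2 with it lower, where 6.62% of all tested genes were called, 4.04% higher and 2.58% lower. Mmp14, Col18a1 and Nid1 were called in both knockouts, each falling in mT6 and rising in mT69a. The differences were 1.77 ± 0.25 for Mmp14 (adjusted p = 0.00261), 2.16 ± 0.19 for Col18a1 (adjusted p = 0.000176) and 9.28 ± 0.58 for Nid1 (adjusted p = 2.37e-05). No member was called in both knockouts in the same direction. The share of all tested genes called in both knockouts was not counted. With the replicate block 19 members passed, 16 higher and 3 lower, where 15.2% of all genes were called. The 4 added were Lamc1 (1.51, adjusted p = 0.000126 with the block against 0.116 without), Mmp15 (0.86, 0.0108 against 0.067), Itga3 (0.56, 0.0384 against 0.219) and Itgb6 (-0.73, 0.0218 against 0.0684). For this difference the tested genes had a median of 0.301 on chromosome 1 (Lamc1) and 0.446 on chromosome 14 (Mmp14 and Loxl2). It was 0.503 on chromosome 17 (Ltbp1) and 0.313 on chromosome 19 (Ltbp3). On chromosome 12 (Lamb1) it was -0.435 and on chromosome 10 (Col18a1 and Timp3) -0.166. The part of these shifts was not tested.

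**Figure D5:**
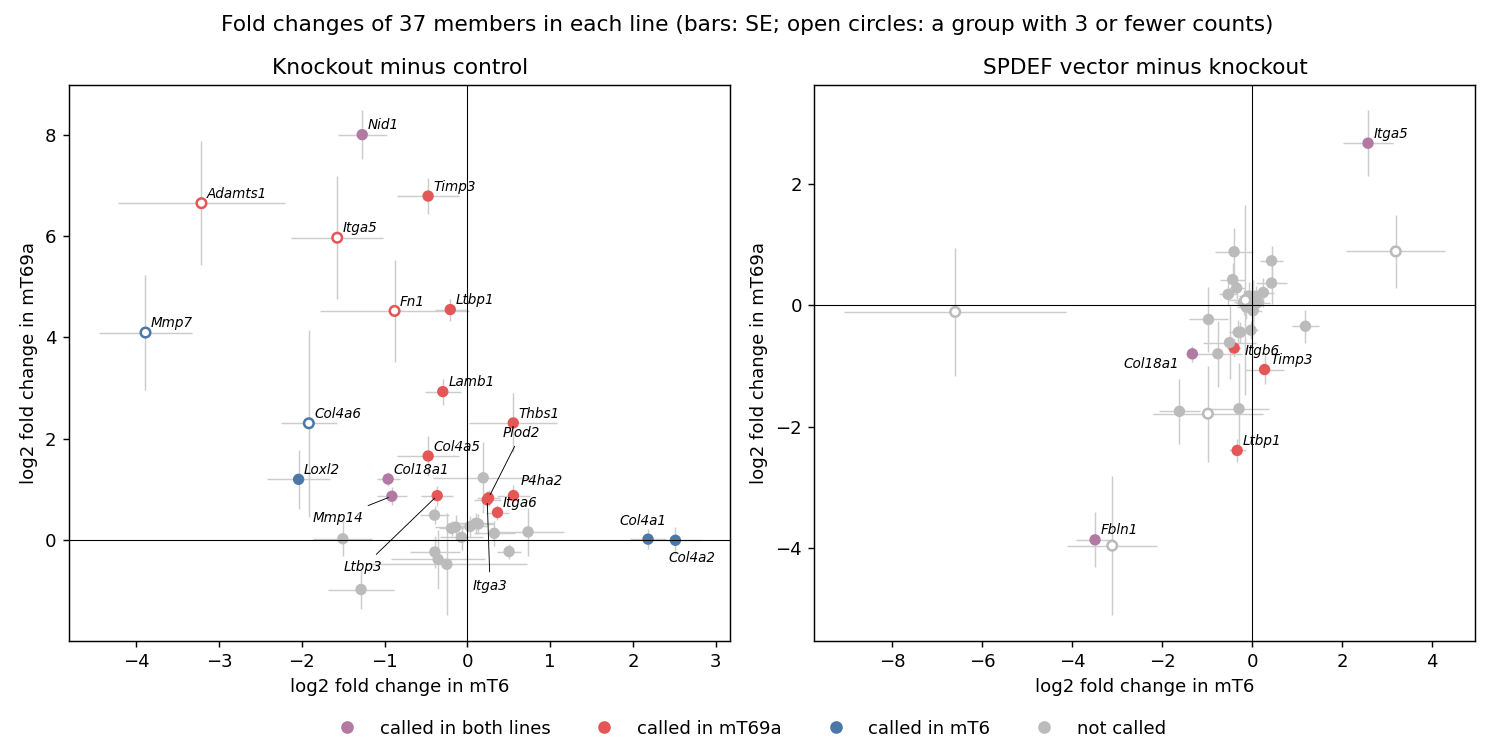
Log2 fold change of each of 37 members in mT6 (horizontal axis) and mT69a (vertical axis), for knockout minus control on the left and SPDEF vector minus knockout on the right, with SE bars and colours for the lines in which the gene was called. Open circles mark genes with 3 or fewer counts in a group, whose fitted values are not bounds. On the left Col4a1 and Col4a2 lie near 0 in mT69a (0.03 and 0.00) and above 2 in mT6, and on the right Itga5, Col18a1 and Fbln1 carry the colour of both lines.

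The control lines themselves differed for 22 of 37 members, 6 higher and 16 lower in mT69a, where 28.2% of all tested genes were called, 13.4% higher and 14.7% lower. The median over members was -0.86, against -0.03 over all genes. All 5 genes of TGF-beta storage and collagen modification were lower in the mT69a control, Plod2 by a log2 change of -3.95 ± 0.16 (adjusted p = 2.83e-07) and Ltbp1 by -2.82 ± 0.21 (adjusted p = 1.06e-05). The mT69a control was also lower for Lamb1 (-4.47 ± 0.27, adjusted p = 2.66e-06), Nid1 (-6.84 ± 0.50, adjusted p = 1.03e-05) and Mmp15 (-2.43 ± 0.18, adjusted p = 1.19e-05). It was higher for Itgb4 (1.20 ± 0.25, adjusted p = 0.00562), Itgb6 (0.92 ± 0.15, adjusted p = 0.00146) and Itga6 (0.70 ± 0.14, adjusted p = 0.00489). With the replicate block 6 members were higher and 20 lower, where 41.8% of all genes were called. The 4 added were Fn1 (-2.66, adjusted p = 0.0378 with the block against 0.0923 without), Fbln1 (-0.87, 0.0187 against 0.059), Lamb2 (-0.62, 0.00501 against 0.0803) and Itgb1 (-0.39, 0.00363 against 0.157). The tested genes of chromosome 8, which carries Itgb1, had a median of -0.34 between the controls, and the part of that shift was not tested.

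A list of 109 other matrix and adhesion genes, 64 of which were tested, gave the setting. In the mT6 knockout 2 of the 64 rose and 4 fell, where 1.28% and 1.96% of all tested genes did, and in the mT69a knockout 13 rose and 5 fell, where 4.88% and 3.71% did. With the vector against the knockout 3 rose and 2 fell in mT6 (1.55% and 1.14% of all genes), and 8 rose and 4 fell in mT69a (2.57% and 1.68%). With the replicate block the mT6 counts became 14 for the knockout and 9 for the vector, where 12.5% and 7.29% of all genes were called. In mT69a the block gave 17 higher and 6 lower for the knockout and 12 and 6 for the vector, where 16.0% and 10.6% were called. Ecm1, a secreted extracellular matrix protein, rose in both knockouts, by 1.74 ± 0.28 in mT6 (adjusted p = 0.00936) and 2.42 ± 0.22 in mT69a (adjusted p = 9.01e-05). It was at 0.990 and 0.893 CPM in the mT6 controls against 3.98 and 2.46 CPM in the knockouts, and at 7.501 and 7.68 CPM in the mT69a controls against 45.9 and 35.2 CPM.

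With the vector, Loxl4, a lysyl oxidase relative of Loxl2, rose in both lines against the knockout. It went from 10.7 and 12.2 to 82.0 and 75.4 CPM in mT6 (2.77 ± 0.14, adjusted p = 9.3e-06) and from 103 and 93.7 to 288 and 278 CPM in mT69a (1.52 ± 0.13, adjusted p = 0.000197). Itga1, a collagen-binding integrin chain, rose by 2.67 ± 0.57 and 2.52 ± 0.39 (adjusted p = 0.0371 and 0.00492), and Tinagl1, a basement membrane glycoprotein, by 0.85 ± 0.18 in each line (adjusted p = 0.0356 and 0.0245). For Itga1 the controls were at 0.229 and 0.286 CPM in mT6 and 3.63 and 6.06 CPM in mT69a. For Tinagl1 they were at 39.4 and 40.6 CPM in mT6 and 140 and 109 CPM in mT69a, below the knockout and vector libraries of each line. Tgfb3, which encodes TGF-beta 3, fell by 2.44 ± 0.26 and 1.29 ± 0.21 on the log2 scale in mT6 and mT69a (adjusted p = 0.000942 and 0.00581). The Tgfb3 controls were at 11.7 and 10.1 CPM in mT6, above the knockouts, and at 2.19 and 2.69 CPM in mT69a, below them. Itgb2, the leukocyte integrin beta2 chain, fell from 6.10 and 4.53 to 1.52 and 1.06 CPM in mT6 (-2.03 ± 0.33, adjusted p = 0.00982) and from 2.85 and 2.96 to 0.237 and 0.541 CPM in mT69a (-2.96 ± 0.39, adjusted p = 0.00191). The Itgb2 controls were at 15.8 and 14.8 CPM in mT6, above the knockouts, and at 0.0625 and 0.135 CPM in mT69a, below them. The summed immune markers were lower with the vector too, from 10.7 and 5.12 to 6.08 and 2.35 CPM in mT6 and from 12.1 and 8.35 to 5.88 and 4.60 CPM in mT69a. Most of that sum was Cd68, at 10.7 and 4.97 CPM in the mT6 knockouts and 11.6 and 8.003 CPM in those of mT69a, while Ptprc, the pan-leukocyte marker CD45, reached 0.178 CPM at most. The part of immune cells in the level of Itgb2 was not tested.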

How the data were processed

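Total RNA was made into TruSeq Stranded Total RNA libraries, per the labels. Reads were checked with FastQC 0.11.8 and processed with STAR 2.5.2b and RSEM 1.3.0 on GRCm38.p6, per the submitters' processing notes. The annotation release and the strand setting of the counting are not given in the sources used here. The authors deposited expected counts and TPM (abundance per length) for genes and transcripts; 8.08% to 11.3% of the expected counts of a library were not whole within 0.005. Of 53715 gene identifiers, 53620 matched GENCODE M21.

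Expected counts were rounded to whole numbers. Genes were filtered with filterByExpr by group (14473 left), scaled by TMM factors (0.839 to 1.20) and fitted with edgeR 4.0.16 in R 4.3.3 by robust quasi-likelihood with 1 mean for each of the 6 groups, which leaves 6 residual degrees of freedom. All comparisons were contrasts of that fit, two-sided, with Benjamini-Hochberg adjustment and a threshold of 0.05. The script was tested on simulated counts. Alternatives were the replicate number as a block, DESeq2 1.42.0, relative log expression size factors, no filter, limma 3.58.1 on log2(TPM + 1) and log2(TPM + 0.1), a fit of each line alone, and leaving out each library.

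Libraries with the same replicate number deviated together from their group means, with correlations of 0.205 to 0.531 over all 15 pairs of groups. The main fit does not use that pairing, and every call without a named block comes from it. The fit with the replicate number as a block is the one that does. The labels do not say what the numbers share. Blocked values stand in the text where they change a member's call. A fold against a group with 0 counts is a lower bound against a floor of 3 counts over the group (0.107 to 0.352 CPM in a single library), and where a group held 1 to 3 counts the summed counts are set against each other with an exact interval at the 95% level. Intervals and floors cover counting error only.

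Members, lists and tests were chosen with earlier results of these data known. Described in full are members called for knockout or vector in either line with a group mean of at least 1 CPM and the most abundant chain of each family. Genes of the list of 109 are named where they were called in the same direction in both lines or are a partner chain of a member. A few items are not reported here. Promoter windows come from RefSeq's GRCm38.p6 table, which held 33 of the 44 members. No protein sequence was used here.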

Additional observations from a re-analysis of the deposited data

Results flagged for a closer look

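The knockout effect differed between the lines, by edgeR's test of the mT69a minus mT6 difference, for 15 members. For the matrix genes proper the difference in log2 fold change was 9.28 for Nid1, 3.22 for Lamb1, 2.16 for Col18a1, 2.13 for Col4a5, -2.17 for Col4a1 and -2.52 for Col4a2. Fn1 differed by 5.40, with 3 counts in the mT69a controls.

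Among proteases and inhibitors the difference was 7.27 for Timp3 and 1.77 for Mmp14. It was 7.98 for Mmp7 and 9.86 for Adamts1, fitted values that depend on groups with 0 or 1 count and are no bounds. Among genes of TGF-beta storage and collagen modification it was 4.76 for Ltbp1, 1.24 for Ltbp3 and 3.23 for Loxl2. The one integrin chain was Itga5, at 7.54, a fitted value that rests on 0 counts in the mT69a controls. With 1 knockout clone and 1 Rosa26 control clone per line, a difference between clones, knockout or control, and a difference between lines cannot be told apart. The part of the chromosome-wide shifts given above for this difference was not tested.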

How the results depend on the processing

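No member reversed a call under any alternative run. Counts of called members depended on the method. By limma on log2(TPM + 1), log2(TPM + 0.1) and log2(TPM + 1) without a filter, the knockout counts were 4, 3 and 4 in mT6 (main 8) and 7, 8 and 6 in mT69a (main 16). Over all genes the same runs called 95, 71 and 123 in mT6 (main 468) and 455, 460 and 465 in mT69a (main 1244). They tested 13265 genes with the filter and 27769 without it, against 14473 in the main fit. For vector against knockout the member counts were 1, 1 and 1 in mT6 (main 3) and 2, 3 and 2 in mT69a (main 6). Counts over all genes were 146, 120 and 140 in mT6 (main 389) and 225, 175 and 205 in mT69a (main 615). For vector against control the mT6 member count (main 10) was 6 with log2(TPM + 0.1) and 4 without a filter, and the mT69a count (main 15) was 6, 6 and 7. Counts over all genes were 331 and 401 in mT6 (main 1246) and 644, 676 and 604 in mT69a (main 1792). For the difference of knockout effects (main 15) the member counts were 7, 8 and 6, where 281, 226 and 231 of all genes were called (main 958). TPM also moved the median of all genes in mT69a vector against knockout to -0.16 and -0.19 with pseudocounts of 1 and 0.1, in the mT69a knockout to 0.11, and in the difference of vector effects to -0.12, the last 2 with 0.1.

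Fitting mT6 alone left 1 call for its knockout, where 70 of 13173 tested genes were called. Without a filter on low counts the vector against knockout counts were 8 in mT6 and 11 in mT69a, the mT6 vector against control count 17, and the difference of vector effects 3. In the same order 950, 1176, 1886 and 196 of 27712 genes were called there. The replicate block gave 5 for vector against knockout and 17 for vector against control in mT6, and 1 for the difference of vector effects. It called 1055, 2752 and 55 of all 14473 genes in those comparisons. DESeq2 gave 5 and 1 for the first and last, where it called 572 and 44 of all genes. The causes were not tested. The block changed no member's call other than those given in the text. Relative log expression scaling changed no call.

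Leaving out 1 library at a time, the counts ran from 3 to 7 and from 5 to 16 for knockout in mT6 and mT69a, from 2 to 3 and from 2 to 7 for vector against knockout, from 8 to 10 and from 10 to 15 for vector against control, from 11 to 15 and from 0 to 1 for the differences, and from 18 to 22 for the controls. Calls over all tested genes also became fewer whenever a library of the compared groups was left out, except in some fits for the difference of vector effects. Depth limits how well the size of a change is known where a group has few counts: the mT69a knockout to control ratio of 24.3 for Fn1 has an interval of 7.97 to 120, and that of 20.5 for Mmp7 one of 3.28 to 850.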

Other observations

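Serpinh1, which encodes the collagen chaperone HSP47, was singled out after its values were seen. It was at 0.625 and 0.337 CPM in the mT69a controls, 13.3 and 11.4 CPM in the knockouts and 16.4 and 10.8 CPM with the SPDEF vector. The controls lay below the other 4 libraries, and it rose in the mT69a knockout by 4.65 ± 0.47 (adjusted p = 0.000331). In mT6 it was at 0.686 and 0.643 CPM in the controls, 0.177 and 0 CPM in the knockouts and 0 in both SPDEF vector libraries. The difference between the lines in the knockout effect was 7.84 ± 0.90 (adjusted p = 0.00121), a fitted value with few counts in mT6.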
